A study of Mus musculus with 9 samples.

Results

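Left lungs that had been stored cold, transplanted and reperfused were compared with untouched left lungs, using 6 of the 9 libraries of a mouse RNA-seq study of lung transplantation. Libraries were taken by their titles. The 3 cold-ischemia grafts were left lungs of adult wild-type C57BL/6 mice that were kept at 0 °C for 24 h, placed orthotopically in Balb/C recipients and reperfused for 2 h. The 3 naive lungs came from adult wild-type C57BL/6 mice without surgery. The remaining 3 libraries were of grafts whose donors had also gone through hypovolemic shock. They entered the filter on low counts, the scaling and the estimate of the spread, and are compared only near the end. Each library holds RNA of a whole left lung, so a graft contains the donor's tissue together with blood cells of the recipient. In such bulk samples, fewer cells of a type and less RNA per cell cannot be told apart.

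The group of 1 graft is in dispute. Its title makes it cold-ischemia replicate 2, while the deposited tables list it among the shock grafts, and the tables move shock replicate 3 the other way. Each naive library, and no graft, is tied by its labels to a second record in the same archive. Batch and treatment therefore cannot be told apart in any value below. The labels number the lungs of a group without naming the animals, and p-values then measure only the spread between these samples, which may be technical. The 6 libraries held 18913487 to 34986276 counts, with 1.94% to 2.34% of them from mitochondrial genes. Over all 9 libraries, shock grafts included, the first principal component carried 64.3% of the variance and separated naive lungs from grafts. Levels are in CPM, read counts brought to a common library size with TMM scaling, and are listed in the order of replicates 1, 2 and 3.

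Cold storage starves a lung of oxygen and nutrients without warming it, and reperfusion then returns blood flow, stretch and oxygen at once. Endothelium, the lining of the vessels, is the first tissue to meet the returning blood. It normally keeps vessels open and free of clot through transcription factors that respond to flow, and it loses this state when inflammatory signals activate it. The first genes to answer such signals encode transcription factors and inhibitors that shut the same signals down, and many of their mRNAs live only minutes.

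Of 15834 genes tested, 4846 differed between cold-ischemia grafts and naive lungs by edgeR's quasi-likelihood test at a Benjamini-Hochberg adjusted p under 0.05, which is 30.6% of the genes. The grafts were higher at 2768 genes (17.5%) and lower at 2078 (13.1%), and these shares are the background for every list below. The 3 grafts lay entirely to 1 side of the 3 naive lungs at 50.9% of all genes tested. The rule that named most genes below required this, so a lack of overlap at a named gene is no separate result. Rises were the larger changes: 365 of them reached 8-fold, against 66 of the falls. Genes called higher took 19.0% ± 0.398 (SD, n = 3) of the counts of a naive lung and 37.0% ± 2.17 of those of a graft. Genes called lower took 9.26% ± 0.101 and 3.97% ± 0.397. The shares did not overlap between groups, and the exact two-sided permutation test gave p = 0.1 for each, the smallest that 3 against 3 allows, on genes that the test itself had chosen. The count of falls depended on single libraries and was 1323 without cold-ischemia replicate 1 and 1288 without naive replicate 2. Upper-quartile scaling moved the median log2 fold change of all genes by -0.18 and turned the split to 2186 higher and 3371 lower, so 39.3% of called genes were higher instead of 57.1%. Grouping the libraries as the deposited tables do gave 5513 called genes, which shared 4639 of the 4846 calls made by title, 0 of them in the opposite direction.

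**Figure D1:**
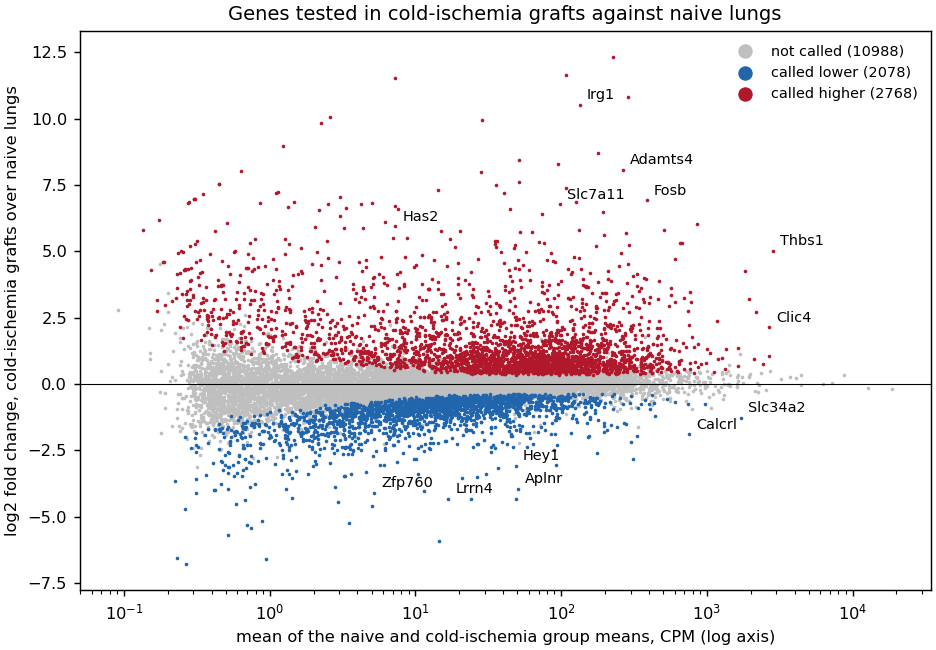
Each point is 1 of the genes tested, placed by the mean of its group means in CPM (log axis) and by its log2 fold change in cold-ischemia grafts over naive lungs. The 2768 genes called higher reach farther from 0 than the 2078 called lower.

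Outside the cytokines, the largest rises in CPM included structural, adhesion and stress genes. Thbs1, which encodes thrombospondin 1, a matrix protein released by platelets and injured tissue, had 142, 139 and 224 CPM in naive lungs and 6239, 6976 and 3272 CPM in grafts (log2 fold change 5.03 ± 0.36, SE from the fit, adjusted p = 5.5e-06). Every graft was far above the naive lungs. The gene lies on chromosome 2, 118111876 to 118127133 of mm10. Clic4, a chloride channel protein that is abundant in endothelium, went from 915, 942 and 1106 CPM to 5039.6, 4759.9 and 3341 CPM (2.15 ± 0.21, adjusted p = 3.8e-05). Akap12, a scaffold protein that tethers protein kinase A, went from 182, 184 and 179 CPM to 3797, 4196 and 2418 CPM (4.26 ± 0.25, adjusted p = 1.7e-06). The naive lungs were nearly equal at Akap12, and each graft was far above them. Ahnak, a giant scaffold protein of the cell cortex, and Sqstm1, the autophagy receptor p62, also rose, with log2 fold changes of 1.06 ± 0.26 and 2.38 ± 0.27.

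The largest losses in CPM among called genes fell on alveolar and endothelial genes. Slc34a2, the phosphate carrier of alveolar type 2 cells, had 2301, 2583 and 2359.6 CPM in naive lungs and 609, 1309 and 1083 CPM in grafts (-1.27 ± 0.31, adjusted p = 0.0096). It was the only one of 13 alveolar type 2 markers to be called, at a median log2 fold change of 0.21 and a summed level of 32907 to 35597 CPM in naive lungs and 31325 to 36863 CPM in grafts. Tmem100, an endothelial membrane protein, went from 521, 536 and 572 CPM to 79.5, 50.3 and 100.1 CPM (-2.82 ± 0.49, adjusted p = 0.0016), and Clec14a, an endothelial lectin, from 574, 530.2 and 373 CPM to 89.6, 63.8 and 174 CPM (-2.17 ± 0.52, adjusted p = 0.009). Both groups were clear of each other at these genes. Igfbp5, which binds insulin-like growth factors, fell as well (-1.97 ± 0.24).

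The largest relative rises included Irg1, which makes itaconate in activated macrophages, Adamts4, an aggrecan-cutting protease, and the selectins Sele and Selp that slow leukocytes on endothelium. Adamts4 had 0.744, 1.31 and 3.64 CPM in naive lungs and 662, 758 and 157 CPM in grafts (8.07 ± 0.87, adjusted p = 7.9e-05), with graft replicate 3 several-fold under the others and a value of 9.03 without naive replicate 3. Selp went from 2.37, 2.44 and 1.64 CPM to 366, 262 and 122.6 CPM (6.87 ± 0.51, adjusted p = 6.5e-06) and Sele from 1.34, 1.18 and 1.29 CPM to 164, 362 and 121 CPM (7.40 ± 0.63). Without graft replicate 2, the disputed library, Sele was at 6.80. Procr, the endothelial receptor of protein C, had 2.60, 2.71 and 2.81 CPM and 71.3, 37.8 and 14.4 CPM, with a log2 fold change of 3.92 ± 0.52 that became 3.27 without graft replicate 1. The naive lungs were almost identical at Procr and the grafts were spread widely.

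Some markers of blood cells moved with the gene groups described next. All 18 neutrophil markers were called higher, with a summed level of 232 to 293 CPM in naive lungs and 1983 to 3133 CPM in grafts. Ly6g, which defines neutrophils, had 0.0572, 0.0905 and 0.253 CPM and 6.80, 9.18 and 9.88 CPM. Of 11 B cell markers 7 were lower and 0 higher, and the sum went from 122 to 160 CPM in naive lungs to 66.3 to 82.6 CPM in grafts. Platelet and erythrocyte markers summed to 48.6 to 240 CPM in naive lungs and 201 to 499 CPM in grafts, so the groups overlapped. Of 15 members 4 were higher, and 0 were called without cold-ischemia replicate 1, without naive replicate 1 or without naive replicate 2. Monocyte and macrophage markers (1 higher and 2 lower of 16), alveolar type 1 markers (2 and 0 of 12) and airway markers (0 and 0 of 13) were called at or below the background. The part of blood cells in the changes of other genes was not tested.

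One rise can be set beside the strains used. C57BL/6 mice, the donors, are known not to express the class II chain encoded at H2-Ea, while Balb/C mice, the recipients, express it. H2-Ea-ps, on chromosome 17, 34342933 to 34344643 of mm10, had 0 reads in all 3 naive libraries and 12.2, 13.7 and 17.3 CPM in grafts (adjusted p = 2.3e-06). Against a floor of 3 reads over the naive group this was at least 464-fold higher. All 3 grafts, the disputed library included, carried it at similar levels.

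Many transcription factors of the early response rose. Of 21 AP-1 and related bZIP genes 15 were higher and 0 lower, at a median log2 fold change of 2.11 beside -0.04 for all genes. Fosb, a Fos family partner of Jun proteins, had 8.44, 3.21 and 6.90 CPM in naive lungs and 784, 859.5 and 653 CPM in grafts (6.94 ± 0.53, adjusted p = 8.3e-06). Junb went from 107.9, 86.2 and 59.6 CPM to 1082, 898 and 1156 CPM (3.63 ± 0.23, adjusted p = 2.6e-06) and Maff, a small Maf protein without an activation domain, from 32.4, 30.6 and 43.1 CPM to 786, 441 and 658 CPM (4.15 ± 0.25, adjusted p = 2.1e-06). At all of these the groups were far apart. Jun itself did not pass and was already high in naive lungs, with 323, 280.4 and 328 CPM there and 469.8, 385 and 386 CPM in grafts (0.41 ± 0.18, adjusted p = 0.1), although it was called with only the 6 libraries in the fit. Fos had 80.6, 24.4 and 31.2 CPM in naive lungs, with replicate 1 the highest, and 325, 216 and 264 CPM in grafts. Its log2 fold change was 2.56 ± 0.45, or 3.26 without naive replicate 1.

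Of 13 genes of the EGR and NR4A group and their companions, 12 were higher and 0 lower, with a median of 2.49. Ier3, an early response protein that protects cells from death signals, had 108.6, 80.6 and 65.5 CPM and 594, 608 and 936 CPM (3.07 ± 0.28, adjusted p = 2.2e-05). Egr2, a zinc finger factor, had 5.01, 4.61 and 5.01 CPM and 31.8, 23.2 and 27.4 CPM (2.49 ± 0.21, adjusted p = 1.4e-05). Srf, which drives early genes and the actin cytoskeleton through CArG boxes, had 63.6, 68.2 and 74.5 CPM and 130.1, 184 and 138 CPM (1.13 ± 0.21, adjusted p = 0.0022). The nuclear receptor Nr4a3 rose by 4.23 ± 0.44, and by 4.99 without naive replicate 3, where its naive level was highest. The count of 12 was the same in all 17 alternative settings, and that of AP-1 genes ran from 15 to 17.

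The promoters of several of these genes carry letters that NF-kB or SRF can bind. For 6 genes that rose, chosen after the search, the 250 bases before a transcription start are shown, from RefSeq on GRCm38.p6, 5′ to 3′ on the strand of the gene. Capitals mark every match to the NF-kB site (Tnfaip3, Fosb, Egr4 and Ier3) or the CArG box (Egr2 and Srf), searched on both strands. In the table of 32851 mouse promoters 3.90% of windows of this length hold an NF-kB match and 1.47% a CArG box.
Tnfaip3 chr10:19015411-19015660 minus strand: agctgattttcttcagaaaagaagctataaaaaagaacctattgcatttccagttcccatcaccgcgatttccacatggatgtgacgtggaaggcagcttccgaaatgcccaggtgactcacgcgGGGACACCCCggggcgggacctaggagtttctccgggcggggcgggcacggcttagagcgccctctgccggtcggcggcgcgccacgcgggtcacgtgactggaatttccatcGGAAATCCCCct
Fosb chr7:19310046-19310295 minus strand: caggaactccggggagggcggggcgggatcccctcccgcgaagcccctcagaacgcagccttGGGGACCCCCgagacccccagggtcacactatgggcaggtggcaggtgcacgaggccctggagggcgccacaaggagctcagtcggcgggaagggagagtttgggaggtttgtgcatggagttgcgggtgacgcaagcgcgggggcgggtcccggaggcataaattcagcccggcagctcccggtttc
Egr4 chr6:85513590-85513839 minus strand: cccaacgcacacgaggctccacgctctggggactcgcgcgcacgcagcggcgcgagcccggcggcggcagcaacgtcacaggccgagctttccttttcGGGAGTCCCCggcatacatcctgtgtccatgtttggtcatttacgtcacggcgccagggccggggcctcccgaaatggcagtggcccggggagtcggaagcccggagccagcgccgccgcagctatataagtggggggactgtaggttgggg
Ier3 chr17:35821463-35821712 plus strand: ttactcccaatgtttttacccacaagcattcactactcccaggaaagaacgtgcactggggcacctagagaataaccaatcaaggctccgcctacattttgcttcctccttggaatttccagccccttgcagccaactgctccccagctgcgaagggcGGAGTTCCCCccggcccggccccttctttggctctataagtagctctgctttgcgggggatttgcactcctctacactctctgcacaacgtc
Egr2 chr10:67537316-67537565 plus strand: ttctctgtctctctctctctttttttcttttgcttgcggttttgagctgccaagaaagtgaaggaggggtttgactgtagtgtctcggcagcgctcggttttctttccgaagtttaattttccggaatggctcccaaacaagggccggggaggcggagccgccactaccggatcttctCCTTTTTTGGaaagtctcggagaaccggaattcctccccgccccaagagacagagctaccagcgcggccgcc
Srf chr17:46556163-46556412 minus strand: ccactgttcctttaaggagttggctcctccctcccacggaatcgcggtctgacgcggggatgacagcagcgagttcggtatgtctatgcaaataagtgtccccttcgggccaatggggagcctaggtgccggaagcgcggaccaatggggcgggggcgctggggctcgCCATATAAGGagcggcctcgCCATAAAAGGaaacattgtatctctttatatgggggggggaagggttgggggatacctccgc
Tnfaip3 and Srf each have 2 matches, and the others 1. The Egr2 window is 1 of 5 starts that RefSeq lists for the gene and the Tnfaip3 window 1 of 2. For each gene the window shown was the earliest listed to hold a match, number 2 for Egr2. That of Tnfaip3 lies almost wholly inside the gene as annotated for the counts, 19000910 to 19015657. A match describes the letters and is not a measured binding site. Egr4 was scarce, at 0.0572, 0.181 and 0.0253 CPM in naive lungs and 2.63, 1.11 and 1.62 CPM in grafts.

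Krueppel-like factors moved in opposite directions. Of 15 members Klf5, Klf6, Klf7 and Klf10 rose, while Klf15 fell, as did Klf2 and Klf4, which laminar flow keeps high in endothelium. Without shock replicate 2, 7 were higher. Klf2 had 429, 228 and 258 CPM in naive lungs and 90.2, 85.8 and 85.6 CPM in grafts (-1.81 ± 0.22, adjusted p = 0.00016). The grafts were almost equal to each other and all lay far below the lowest naive lung. Klf6 went from 264, 180.5 and 202 CPM to 876, 777 and 693 CPM (1.86 ± 0.18, adjusted p = 4.1e-05) and Klf5 from 20.2, 24.7 and 24.9 CPM to 100.7, 108.9 and 68.9 CPM (2.00 ± 0.18, adjusted p = 2.8e-05). Klf4 was at -0.88 ± 0.22 (adjusted p = 0.012), and without naive replicate 1 at -0.67 with an adjusted p of 0.051. Its adjusted p stayed under 0.05 in the other 16 alternatives.

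Many genes that end inflammatory and growth signals rose. Of 23 genes of the Sprouty, Spred, SOCS and PIM group 16 were higher and 1 lower, with a median of 0.98, and of 11 dual-specificity phosphatases of MAP kinases 7 were higher and 0 lower, with a median of 1.43. The 16 include Pim1, a survival kinase that does not end such signals. Pim1 had 21.0, 19.4 and 22.9 CPM in naive lungs and 309, 279 and 231 CPM in grafts (3.69 ± 0.18, adjusted p = 7.4e-07). Socs3, which blocks cytokine receptors that signal through JAK kinases, went from 36.7, 30.0 and 28.8 CPM to 1551, 1354 and 936 CPM (5.33 ± 0.27, adjusted p = 7.7e-07). Dusp2 went from 2.83, 2.44 and 4.27 CPM to 46.8, 37.8 and 46.9 CPM (3.77 ± 0.22, adjusted p = 1.5e-06), and Dusp5 rose by 2.80 ± 0.20. The groups were far apart at these genes. Lrig3, which dampens growth factor receptors, was the member that fell (-1.15 ± 0.24). Il17rd, which also holds back growth factor signals, stands outside these lists and fell by more (-1.725).

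The smallest adjusted p outside the cytokines belonged to Zc3h12a, at chromosome 4, 125118423 to 125127840 of mm10. It encodes Regnase-1, a nuclease that destroys mRNAs of inflammatory proteins. Zc3h12a had 10.9, 8.91 and 7.89 CPM in naive lungs and 344, 308 and 355 CPM in grafts (5.18 ± 0.18, adjusted p = 1.5e-07). It belongs to a list of 21 regulators of mRNA decay, of which 13 were higher and 0 lower, with a median of 0.70. Zfp36, tristetraprolin, which removes mRNAs with AU-rich ends, went from 171, 102 and 108.1 CPM to 1184, 894 and 1170.5 CPM (3.09 ± 0.23, adjusted p = 6.2e-06). Arid5a, which protects some of the same mRNAs from Regnase-1, went from 17.9, 16.6 and 24.6 CPM to 264, 278 and 247 CPM (3.74 ± 0.18, adjusted p = 7.4e-07). Genes known to shorten and to lengthen the life of these mRNAs thus rose in the same grafts.

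The next smallest adjusted p included Tnfaip3, Itpkc, Nuak2 and Samsn1. Itpkc, a kinase that consumes the calcium messenger inositol trisphosphate, had 11.3, 13.5 and 13.9 CPM in naive lungs and 205, 174 and 153 CPM in grafts (3.78 ± 0.18, adjusted p = 7.4e-07). Nuak2, a kinase related to AMPK, had 12.1, 12.5 and 13.6 CPM and 111, 109.4 and 108.03 CPM (3.10 ± 0.15, adjusted p = 7.4e-07). Samsn1, an adaptor of blood cells, rose by 3.67 ± 0.17. Tnfaip3, or A20, which edits ubiquitin chains to stop NF-kB, had 33.2, 25.3 and 19.5 CPM and 1816, 1752 and 1504 CPM (6.02 ± 0.27). The grafts were nearly equal at Nuak2.

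Some small GTPases that reshape the actin cytoskeleton rose. Rnd1, which lacks GTPase activity and loosens adhesions, went from 16.8, 13.1 and 8.04 CPM to 286, 214 and 165 CPM (4.13 ± 0.39, adjusted p = 3.2e-05), and Rnd3, of the same kind, from 20.5, 22.8 and 25.3 CPM to 176, 150.2 and 127 CPM (2.72 ± 0.22). Gem, which inhibits calcium channels, rose by 3.69 ± 0.33. Rgs16, which shortens signals of G protein-coupled receptors, had 0.801, 0.769 and 0.607 CPM in naive lungs and 44.2, 29.6 and 44.5 CPM in grafts (5.77 ± 0.45, adjusted p = 8.8e-06). Over the 15 RGS genes 2 were higher and 4 lower, so the family did not move as Rgs16 did.

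**Figure D2:**
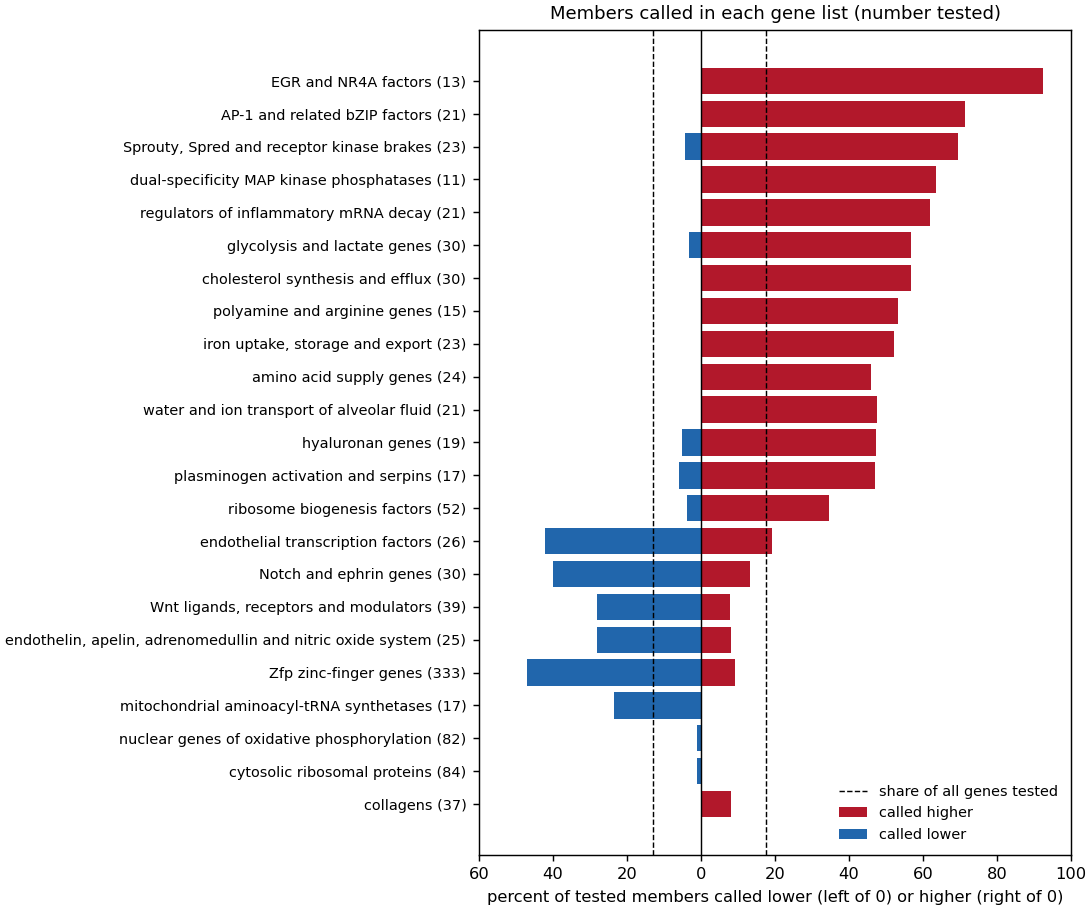
Bars give, for 23 gene lists, the percent of tested members called higher (right of 0) or lower (left of 0) in cold-ischemia grafts, with the number tested in brackets. Dashed lines mark the shares over all genes tested, 17.5% higher and 13.1% lower.

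The EGF receptor ligands Areg, Hbegf and Ereg rose. Of 13 genes of the family 5 were higher and 0 lower. Areg, amphiregulin, had 5.38, 2.76 and 6.75 CPM in naive lungs and 126, 62.0 and 63.9 CPM in grafts (4.06 ± 0.36, adjusted p = 2.2e-05). Hbegf went from 47.2, 40.7 and 38.6 CPM to 459, 393 and 243 CPM (3.11 ± 0.26, adjusted p = 1.4e-05). Ereg, epiregulin, was nearly absent from naive lungs, at 0.0286, 0.136 and 0.329 CPM, and reached 37.6, 33.8 and 13.4 CPM (7.31 ± 0.59, or 8.53 without naive replicate 3). With 17 reads of Ereg over the naive group, the size of its rise is uncertain.

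Vascular transcription factors were called lower more often than higher. Of 26 endothelial transcription factors 11 were lower and 5 higher, with a median of -0.59. The lower members numbered 11 to 14 over the alternatives, and the higher ones 3 without naive replicate 1 and 3 without naive replicate 2. Nr2f2, which sets venous identity, had 94.5, 104 and 94.1 CPM in naive lungs and 18.5, 19.8 and 17.9 CPM in grafts (-2.38 ± 0.14, adjusted p = 1.8e-06). Gata2 went from 138, 122.8 and 192 CPM to 26.4, 21.0 and 32.8 CPM (-2.50 ± 0.21, adjusted p = 1.6e-05). Sox17 and Sox18, partners in vessel formation, went from 47.4, 56.0 and 67.3 CPM to 8.48, 8.03 and 12.3 CPM (-2.57 ± 0.28) and from 115, 158 and 224 CPM to 16.5, 11.2 and 31.5 CPM (-3.07 ± 0.39). Grafts lay below naive lungs without overlap at each of them. Ets1, an activator of endothelial and lymphoid genes, rose in contrast, from 238, 248.8 and 258 CPM to 986, 951 and 479 CPM (1.70 ± 0.25, adjusted p = 0.00054). Of 18 markers of capillary and venous endothelium, 4 were lower and 1 higher, with sums of 6337 to 6940 CPM in naive lungs and 5519 to 5924 CPM in grafts. Without shock replicate 2, 7 were lower.

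Some receptors for vasodilator peptides fell while a ligand rose. Adrenomedullin, made from Adm, acts on the receptor encoded by Calcrl, which needs Ramp2 or Ramp3 as a partner. Adm had 3.40, 4.12 and 11.8 CPM in naive lungs and 97.0, 111 and 84.3 CPM in grafts (3.90 ± 0.51, or 4.70 without naive replicate 3). Calcrl went from 1225, 1287 and 1065 CPM to 243, 328 and 396 CPM (-1.89 ± 0.30, adjusted p = 0.0009), at chromosome 2, 84330626 to 84425411 of mm10. Ramp2 went from 345, 312 and 297 CPM to 72.0, 89.8 and 122 CPM (-1.75 ± 0.26, adjusted p = 0.00068). The partners thus moved apart, since Ramp3, the scarcer of them, went from 2.72, 3.12 and 6.20 CPM to 28.6, 11.6 and 14 CPM (2.16 ± 0.57, adjusted p = 0.015). Ramp3 lost its call without graft replicate 1 (1.67), without naive replicate 1 (1.93) or without naive replicate 2 (2.01).

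Aplnr, the apelin receptor, had 85.9, 100.6 and 97.7 CPM in naive lungs and 12.1, 1.84 and 4.57 CPM in grafts (-3.95 ± 0.86, adjusted p = 0.0057). Its grafts were spread widely, and without graft replicate 1 the value was -4.89. Gucy1a3, a subunit of the nitric oxide receptor, went from 289, 275 and 313 CPM to 85.5, 85.8 and 123.4 CPM (-1.57 ± 0.22, adjusted p = 0.00039), and Ednra, an endothelin receptor of smooth muscle, from 75.5, 80.0 and 83.1 CPM to 34.2, 46.6 and 43.8 CPM (-0.94 ± 0.15). Npr3, which clears natriuretic peptides, had 86.2, 185 and 463 CPM and 68.7, 59.6 and 52.9 CPM (-2.02 ± 0.57), and it lost its call without any 1 of the grafts or without naive replicate 3 (-1.16). In all, 2 of the 25 genes of the endothelin, apelin, adrenomedullin and nitric oxide systems were higher and 7 lower, with a median of -0.38.

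**Figure D3:**
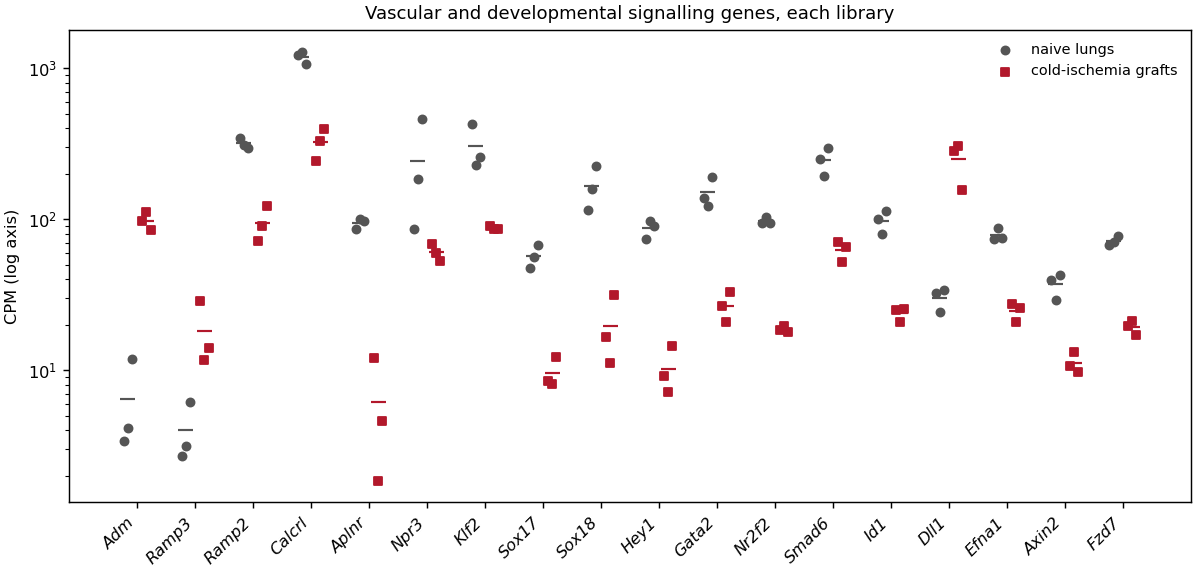
Points are single libraries in CPM (log axis), circles for naive lungs and squares for cold-ischemia grafts, with a line at each group mean. Adm, Ramp3 and Dll1 are higher in every graft than in any naive lung, and the other 15 genes are lower.

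Developmental signalling genes moved in both directions. Of 33 genes of the BMP, activin and TGF-beta family 8 were higher and 8 lower. Gdf15, a stress ligand, went from 0.973, 1.49 and 2.35 CPM to 81.2, 46.9 and 79.3 CPM (5.41 ± 0.60, adjusted p = 8.9e-05) and the activin subunit gene Inhbb from 21.1, 21.7 and 22.0 CPM to 245, 254 and 107.8 CPM (3.23 ± 0.42). Id1, a direct target of BMP signals, went from 99.7, 79.9 and 114 CPM to 25.0, 20.9 and 25.4 CPM (-2.04 ± 0.20, adjusted p = 3.7e-05), and Smad6, an inhibitor induced by the same signals, from 249.5, 193 and 297 CPM to 70.6, 52.1 and 65.8 CPM (-1.97 ± 0.21, adjusted p = 7.2e-05). All of these were free of overlap. The number lower was 5 without cold-ischemia replicate 3, 5 without naive replicate 1 and 4 without naive replicate 2.

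Of 30 Notch and ephrin genes 12 were lower and 4 higher, with a median of -0.63, and 7 were lower without cold-ischemia replicate 1. Hey1, a Notch target of arterial endothelium, fell from 73.8, 97.3 and 90.2 CPM to 9.11, 7.21 and 14.4 CPM (-3.09 ± 0.32, adjusted p = 6.2e-05). Its pathway's ligand Dll1 rose from 32.2, 24.4 and 34.0 CPM to 284, 307 and 155 CPM (3.04 ± 0.30, adjusted p = 4.2e-05). An ephrin pair also moved apart, but here the ligand was the gene that fell. The receptor gene Epha2 rose from 74.5, 65.2 and 88.8 CPM to 603, 442 and 473 CPM (2.73 ± 0.19). Its ligand Efna1 fell from 73.8, 88.1 and 75.2 CPM to 27.3, 20.9 and 25.8 CPM (-1.68 ± 0.17). Of 39 Wnt genes 11 were lower and 3 higher, with a median of -0.37. The list does not hold Wnt1, which had 0 reads in naive lungs and was called higher. Axin2, a target and brake of the pathway, went from 39.3, 29.0 and 43.0 CPM to 10.7, 13.3 and 9.70 CPM (-1.72 ± 0.19, adjusted p = 8.6e-05), and the receptor gene Fzd7 from 67.6, 70.4 and 77.5 CPM to 19.7, 21.1 and 17.2 CPM (-1.89 ± 0.14, adjusted p = 7.7e-06). The ligand gene Wnt11 rose by 1.35 ± 0.26.

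Of 24 lineage factors of lung epithelium and mesenchyme 6 were lower and 4 higher. Tbx2, a factor of lung mesenchyme, had 354, 341 and 391 CPM in naive lungs and 106.5, 115 and 135 CPM in grafts (-1.61 ± 0.14, adjusted p = 2.2e-05) and Tcf21, a factor of lung fibroblasts, was lower too (-1.76 ± 0.39). Elf3, an epithelial ETS factor induced by inflammation, rose from 11.7, 14.2 and 12.4 CPM to 63.5, 54.5 and 69.5 CPM (2.29 ± 0.16, adjusted p = 5e-06). Nkx2-1, which sets lung epithelial identity, was lower, at 150.4, 163 and 184 CPM and 83.3, 119 and 110.4 CPM (-0.67 ± 0.17, adjusted p = 0.012). With only the 6 libraries in the fit 10 members were lower, and 11 with upper-quartile scaling.

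The prostaglandin synthesis genes Ptgs2 and Ptges rose, and Hpgd, a gene of prostaglandin breakdown, was lower. Of 26 genes of the pathway 7 were higher and 3 lower. Ptgs2, the inducible cyclooxygenase, had 20.9, 9.86 and 14.3 CPM in naive lungs and 754, 528 and 424 CPM in grafts (5.24 ± 0.37, adjusted p = 4.5e-06). Ptges, which makes prostaglandin E2 from its product, went from 27.9, 30.1 and 22.9 CPM to 266, 346 and 136 CPM (3.21 ± 0.42, adjusted p = 0.00029), and Ptger4 and Ptgir, receptors for prostaglandin E2 and prostacyclin, rose by 2.38 ± 0.41 and 1.93 ± 0.31. Hpgd, which inactivates prostaglandins in the lung, had 741, 597 and 489 CPM and 189, 240.2 and 372 CPM (-1.19 ± 0.37, adjusted p = 0.031), and it lost its call without cold-ischemia replicate 1 (-0.99), cold-ischemia replicate 2 (-1.12), naive replicate 1 (-1.03) or naive replicate 2 (-1.21). Tbxa2r, the receptor of the constrictor thromboxane, fell from 7.35, 11.1 and 12.6 CPM to 3.22, 1.72 and 3.05 CPM (-1.96 ± 0.31, adjusted p = 0.001). The number lower in the pathway was 1 without cold-ischemia replicate 2 and 1 without naive replicate 2.

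Some receptors of extracellular nucleotides and adenosine rose. Of 24 genes of the system 10 were higher and 3 lower, with a median of 0.63, and 1 was lower without cold-ischemia replicate 2 and 1 without naive replicate 2. P2ry2, a receptor of ATP and UTP, went from 17.1, 19.2 and 19.1 CPM to 147, 129 and 90.4 CPM (2.73 ± 0.20, adjusted p = 5.5e-06). The adenosine receptors Adora2b and Adora2a, which raise cyclic AMP, went from 8.67, 11.6 and 11.4 CPM to 37.6, 39.1 and 39.8 CPM (1.88 ± 0.17) and from 5.04, 5.70 and 6.27 CPM to 18.9, 23.2 and 17.2 CPM (1.80 ± 0.20). The ATP-gated channel gene P2rx7 fell from 25.5, 32.7 and 30.5 CPM to 9.52, 9.43 and 8.49 CPM (-1.69 ± 0.17, adjusted p = 4.1e-05). The 3 grafts were nearly equal at Adora2b and at P2rx7.

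Some genes of water and ion transport rose. Of 21 genes of water and ion transport 10 were higher and 0 lower, with a median of 0.55. Aqp3, a channel for water and glycerol, went from 0.343, 0.724 and 0.809 CPM to 3.81, 3.44 and 1.94 CPM (2.29 ± 0.38, adjusted p = 0.0012), and Sgk1, a kinase that keeps sodium channels at the membrane, from 175, 105 and 172 CPM to 436, 326 and 454 CPM (1.43 ± 0.24, adjusted p = 0.0013). Slc26a4, the anion exchanger pendrin, went from 2.03, 2.44 and 2.15 CPM to 23.0, 27.2 and 9.51 CPM (3.18 ± 0.56). Aqp5, the water channel of alveolar type 1 cells, had 244, 264 and 270.0 CPM and 288, 308 and 387 CPM and did not pass (0.34 ± 0.21, adjusted p = 0.27). Of 30 junction genes 7 were higher and 1 lower. The tight junction gene Cldn4 went from 5.09, 4.25 and 4.60 CPM to 187, 62.8 and 65.4 CPM (4.49 ± 0.50), and without graft replicate 1, which was far above the other grafts, its value was 3.78. Cldn15, a pore-forming claudin, fell from 12.6, 14.3 and 12.7 CPM to 0.952, 1.60 and 2.59 CPM (-2.94 ± 0.42, adjusted p = 0.00048).

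Some synthases and binding proteins of hyaluronan, the long sugar chain of injured matrix, rose. Of 19 hyaluronan genes 9 were higher and 1 lower, with a median of 0.50. The synthase Has1 had 1.12, 2.08 and 1.92 CPM in naive lungs and 103, 62.1 and 47.4 CPM in grafts (5.39 ± 0.35, adjusted p = 2.9e-06), and Has2 0.0858, 0.271 and 0.329 CPM and 13.2, 22.3 and 7.25 CPM (5.94 ± 0.61). Tnfaip6, which links proteins to hyaluronan, went from 0.858, 0.633 and 1.04 CPM to 28.1, 18.2 and 12.1 CPM (4.50 ± 0.35, adjusted p = 9.5e-06), and Cd44, its cell surface receptor, from 138, 133 and 138 CPM to 572, 676 and 429 CPM (2.03 ± 0.19). Hyal2, which degrades hyaluronan, was the member that fell, from 63.7, 66.0 and 104 CPM to 12.8, 12.2 and 20.3 CPM (-2.37 ± 0.25, adjusted p = 6.4e-05). Every graft was on the far side of every naive lung at each of these genes.

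Of 17 genes of plasminogen activation and serpins 8 were higher and 1 lower. Plat, the tissue plasminogen activator, went from 43.8, 42.7 and 74.8 CPM to 313, 319.8 and 241 CPM (2.44 ± 0.27, adjusted p = 8.5e-05), and Plaur, the urokinase receptor, from 38.1, 32.2 and 35.5 CPM to 734, 461 and 572 CPM (4.06 ± 0.20, adjusted p = 7.4e-07). Among 36 genes of ADAMTS and matrix metalloproteinases and their inhibitors 13 were higher and 5 lower. The number lower was 1 without cold-ischemia replicate 1, 2 without cold-ischemia replicate 2, 1 without naive replicate 1, 1 without naive replicate 2 and 2 without naive replicate 3. Mmp8, the neutrophil collagenase and thus also a neutrophil marker, rose by 5.37 ± 0.36, and Timp1, an inhibitor of metalloproteinases, went from 3.20, 5.16 and 5.61 CPM to 58.5, 54.8 and 21.4 CPM (3.27 ± 0.70). Mmp28, an epithelial metalloproteinase, fell from 35.9, 35.5 and 53.0 CPM to 6.44, 7.67 and 10.1 CPM (-2.36 ± 0.31, adjusted p = 0.00026). Of 37 collagen genes 3 were higher and 0 lower, under the background, and 1 was higher without cold-ischemia replicate 1 or without naive replicate 1.

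**Figure D4:**
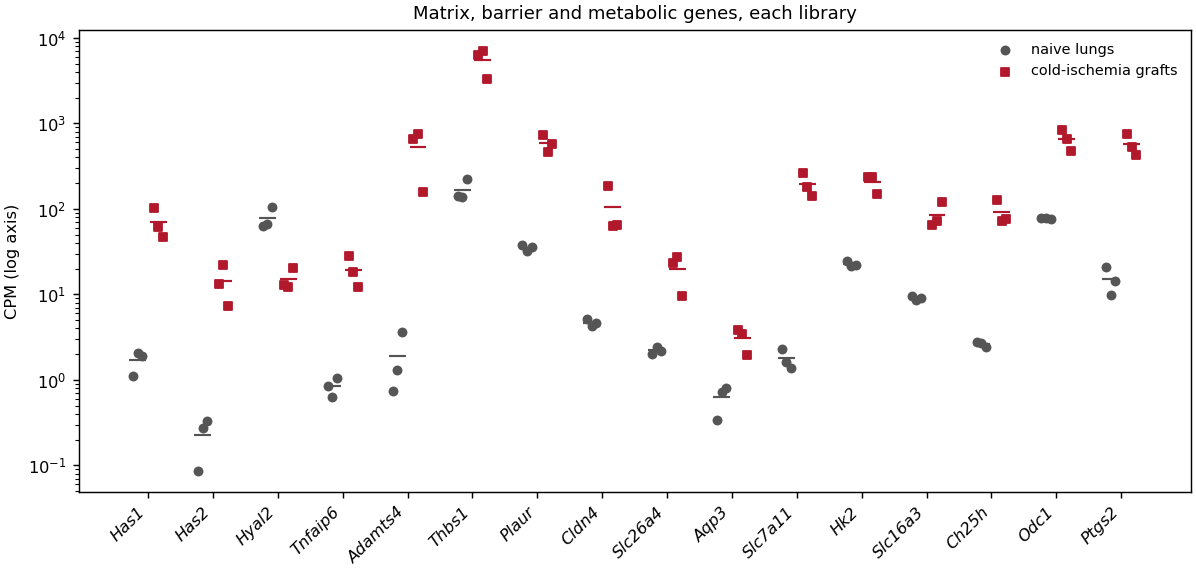
Points are single libraries in CPM (log axis), circles for naive lungs and squares for cold-ischemia grafts, with a line at each group mean. Hyal2 is lower in every graft than in any naive lung, and the other 15 genes are higher.

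Some genes of sugar uptake and lactate export rose. Of 30 glycolysis and lactate genes 17 were higher and 1 lower, with a median of 0.52, and 11 were higher without naive replicate 1. Hk2, the hexokinase that traps glucose, went from 24.5, 21.2 and 21.7 CPM to 239, 235 and 149 CPM (3.21 ± 0.19, adjusted p = 2e-06). Pfkfb3, which makes the activator of phosphofructokinase, went from 139, 148 and 91.7 CPM to 1138, 857 and 901 CPM (2.94 ± 0.23, adjusted p = 9.5e-06), and Slc16a3, a lactate exporter, from 9.67, 8.50 and 9.10 CPM to 65.2, 72.1 and 119.8 CPM (3.23 ± 0.29). Pdk2, a kinase that holds back pyruvate dehydrogenase, was the member that fell (-0.88 ± 0.17). By comparison, of 82 nuclear genes of oxidative phosphorylation 0 were higher and 1 lower, at a median of -0.20.

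Of 30 genes of cholesterol synthesis and efflux 17 were higher and 0 lower, with a median of 0.72. With upper-quartile scaling 13 were higher and 5 lower. Cyp51, which demethylates lanosterol on the way to cholesterol, had 28.0, 33.7 and 30.2 CPM in naive lungs and 98.0, 85.3 and 92.8 CPM in grafts (1.59 ± 0.14, adjusted p = 1.9e-05). Every graft was above every naive lung. Ch25h makes 25-hydroxycholesterol, which holds synthesis back, and it rose too, from 2.80, 2.71 and 2.40 CPM to 126, 72.1 and 76.3 CPM (5.12 ± 0.27, adjusted p = 9.2e-07).

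Some polyamine, amino acid and iron genes rose. Of 15 polyamine and arginine genes 8 were higher and 0 lower, with 5 higher without naive replicate 1 and 5 without naive replicate 2. Odc1, the first enzyme of polyamine synthesis, went from 77.7, 79.0 and 76.9 CPM to 844, 658 and 478 CPM (3.08 ± 0.21, adjusted p = 3.4e-06), and Arg2, an arginase that supplies its substrate, from 3.83, 3.62 and 5.56 CPM to 44.0, 41.7 and 47.5 CPM (3.35 ± 0.29). Of 24 amino acid supply genes 11 were higher and 0 lower, with a median of 0.72. Slc7a11, the cystine carrier, went from 2.32, 1.63 and 1.39 CPM to 264, 179 and 143 CPM (6.77 ± 0.33, adjusted p = 7.4e-07), and the arginine and lysine carrier Slc7a1 from 21.5, 18.9 and 26.8 CPM to 232, 232 and 189 CPM (3.28 ± 0.18). Of 23 iron genes 12 were higher and 0 lower. Fth1, ferritin heavy chain, went from 1474, 1494 and 1395 CPM to 2849.6, 2626 and 2882 CPM (0.94 ± 0.20, adjusted p = 0.0056), and Slc39a14, an importer of iron and zinc, from 14.9, 14.4 and 28.4 CPM to 135, 148 and 110.4 CPM (2.77 ± 0.30). Ltf and Lcn2, which bind iron or its carriers, are also neutrophil markers.

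Factors that build ribosomes were called higher more often than all genes, and ribosomal proteins were not. Of 52 ribosome biogenesis factors 18 were higher and 2 lower, with a median of 0.33. Myc, which drives that program, went from 6.01, 6.24 and 7.84 CPM to 202, 183 and 121 CPM (4.65 ± 0.31, adjusted p = 3.2e-06), and Nop58, a nucleolar protein, from 19.9, 22.9 and 22.4 CPM to 121, 97.0 and 78.1 CPM (2.18 ± 0.19). Of 84 ribosomal protein genes 0 were higher and 1 lower, at a median of 0.01. They took 2.25% ± 0.17 (SD, n = 3) of the counts of naive lungs and 1.87% ± 0.371 of those of grafts, and the groups overlapped (exact two-sided permutation p = 0.3). Such shares are of unscaled counts and are not comparable with CPM, since TMM factors were 1.13 to 1.18 in naive lungs and 0.91 to 0.97 in grafts. Among 26 cold-inducible and splicing regulators 13 were higher and 2 lower. Rbm3, an RNA-binding protein known for its induction by mild cold, went from 82.5, 72.7 and 54.7 CPM to 208, 148 and 182 CPM (1.36 ± 0.19, adjusted p = 0.00048), while its relative in cold induction, Cirbp, had 59.4, 32.7 and 18.1 CPM and 50.1, 44.0 and 83.4 CPM and did not pass (0.69 ± 0.38, adjusted p = 0.2), except without naive replicate 1 (1.22). Srsf5, a splicing factor, rose by 1.86 ± 0.33, and Rbm5, which promotes exon skipping in death genes, was lower (-1.12 ± 0.24).

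The BCL2 family changed on both sides of cell survival. Of 18 genes listed 7 were higher and 4 lower, and those higher include Bcl3, which is not of the family. Mcl1, which keeps mitochondria intact, went from 284, 296 and 382 CPM to 834, 787 and 847 CPM (1.36 ± 0.16, adjusted p = 0.00014). Bcl3, a partner of NF-kB that shares only part of the name, went from 9.53, 9.64 and 18.9 CPM to 209.8, 186 and 163 CPM (3.87 ± 0.30). Bmf, a promoter of cell death, fell from 71.1, 78.8 and 68.1 CPM to 19.4, 17.8 and 19.2 CPM (-1.95 ± 0.18, adjusted p = 3e-05). The number lower was 1 without cold-ischemia replicate 1, 1 without cold-ischemia replicate 2, 2 without naive replicate 2 and 1 without naive replicate 3.

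Among families by shared symbol, the most widespread fall was that of the Zfp genes. Genes named Zfp mostly encode DNA-binding proteins with arrays of zinc fingers, many of which silence transposons and stand in clusters on a few chromosomes. Of 333 tested 157 (47.2%) were lower and 31 (9.31%) higher, with a median of -0.64. All 3 grafts lay below all 3 naive lungs at 206 of them (61.9%, against 25.8% of all genes tested), and above at 43. The lower members numbered 150 without cold-ischemia replicate 2, 173 with the grouping of the deposited tables and 195 with upper-quartile scaling. No other family of at least 20 genes by shared symbol had as many or as large a share lower.

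The share lower exceeded that of other genes at every level. All genes tested were divided into 5 equal classes by mean CPM. In the lowest class 31 of 61 Zfp genes (50.8%) were lower, against 8.34% of other genes. From the next class upwards 84 of 136, 30 of 79, 9 of 40 and 3 of 17 Zfp genes were lower, against 17.9%, 18.5%, 11.5% and 5.94% of other genes. In the top class 8 of 17 Zfp genes were higher, against 33.9% of other genes. By chromosome, 39 of 80 were lower on 7, 22 of 42 on 17 and 21 of 32 on 13, the 3 that hold most members. The median Zfp gene had 9.87, 9.45 and 9.59 CPM in naive lungs and 5.17, 6.35 and 5.45 CPM in grafts. Their summed level was not lower, at 6023 to 6148 CPM in naive lungs and 6769 to 7092 CPM in grafts. That sum holds the large rises of Zfp36, which binds RNA, and of Zfp46. The members called lower summed to 2156 to 2213 CPM in naive lungs and 1015 to 1144 CPM in grafts.

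Zfp760, on chromosome 17, 21707741 to 21725636 of mm10, had 9.99, 9.36 and 10.1 CPM in naive lungs and 0.453, 0.779 and 0.462 CPM in grafts (-4.10 ± 0.36, adjusted p = 2e-05). Zfp467 went from 26.0, 29.2 and 26.7 CPM to 10.5, 8.4 and 9.65 CPM (-1.52 ± 0.15, adjusted p = 4.7e-05) and Zfp60 from 15.7, 15.0 and 15.0 CPM to 3.31, 5.00 and 4.20 CPM (-1.87 ± 0.20, adjusted p = 7.1e-05). The groups were far apart at all 3. Rising members included Zfp36, which binds RNA and not DNA, and Zfp46, which went from 33.0, 34.1 and 34.8 CPM to 278, 349 and 465 CPM (3.42 ± 0.25, adjusted p = 5.8e-06).

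**Figure D5:**
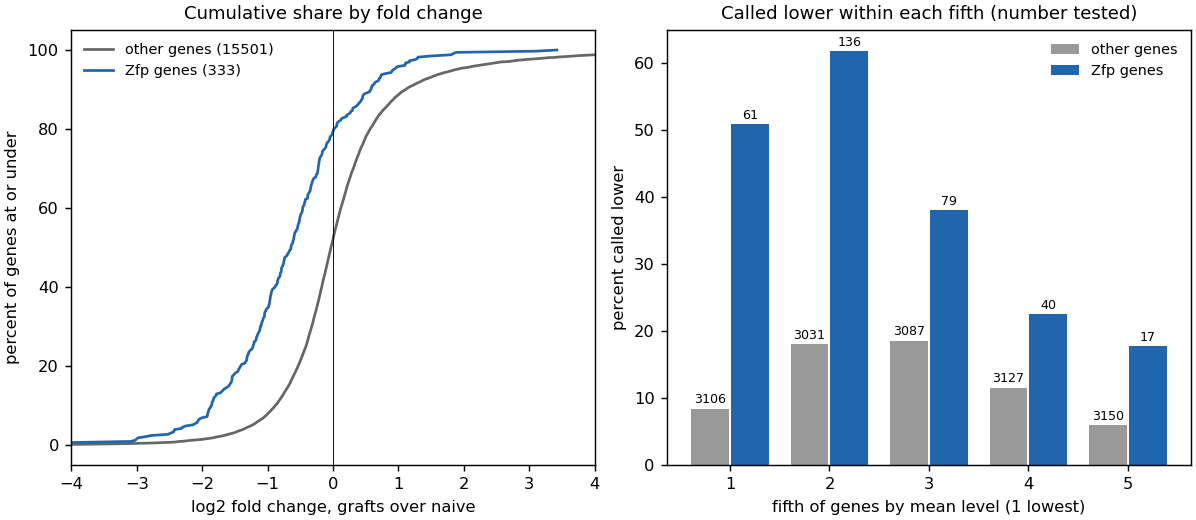
Left, the cumulative percent of genes at or under each log2 fold change for the 333 Zfp genes and all other genes tested. Right, the percent called lower within each of the 5 classes of mean level, with the number tested above each bar. The Zfp share is the higher of the pair in all 5 classes.

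Other families by shared symbol, of at least 20 tested genes, had smaller shares lower. The largest shares lower after Zfp were those of Mettl methyltransferases (9 lower and 1 higher of 24), Kctd (7 and 4 of 20), Fbxo (9 and 6 of 33), Cep (9 and 3 of 34) and Klhl (8 and 4 of 32). Mettl3 and Mettl14, the pair that writes N6-methyladenosine on mRNA, were lower, at -1.11 ± 0.22 and -0.73 ± 0.14. The largest shares higher were those of Bcl (11 higher and 4 lower of 21), Rbm (14 and 3 of 34), Usp (18 and 1 of 45), Eif (20 and 3 of 53), Map (15 and 3 of 42) and Ube (13 and 1 of 37). Usp38, a deubiquitinase, rose by 1.70 ± 0.18, and Eif1a and Eif5, which help the ribosome find the start codon, rose by 2.21 ± 0.16 and 1.84 ± 0.18. Of 271 solute carriers 56 (20.7%) were higher and 24 (8.86%) lower, not far from the 17.5% and 13.1% of all genes tested. The number lower was 14 without cold-ischemia replicate 1, 14 without naive replicate 1 and 50 with upper-quartile scaling. Slc25a25, a mitochondrial carrier of ATP and magnesium, went from 33.0, 23.9 and 26.1 CPM to 319, 263 and 317 CPM (3.44 ± 0.18, adjusted p = 8e-07).

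Some of the largest relative falls were those of mesothelial and fat cell genes. Of 11 mesothelial markers 6 were lower and 1 higher. Lrrn4, a mesothelial surface protein, had 29.4, 35.7 and 30.4 CPM in naive lungs and 0.227, 2.83 and 1.66 CPM in grafts (-4.32 ± 0.76), with -5.07 without graft replicate 2. Its grafts were far below the naive lungs and differed widely from each other. The mesothelial sum stayed at 480 to 540 CPM in naive lungs and 474 to 580 CPM in grafts, and holds Krt19, which other epithelia also express and which rose by 1.74 ± 0.15. Of 13 markers of fat and heart muscle 5 were lower and 0 higher, with 3 lower without any 1 of the 3 grafts or without naive replicate 2, and their sums overlapped, at 437 to 899 CPM in naive lungs and 131 to 1131 CPM in grafts. Car3 and Cfd, genes of fat cells, had 7.87, 97.8 and 31.6 CPM and 8.13, 87.3 and 51.7 CPM in naive lungs and 2.45, 1.23 and 3.09 CPM and 2.58, 3.53 and 6.69 CPM in grafts. Naive replicate 2 was highest at both, and without it their values were -3.13 and -2.81 instead of -4.34 ± 0.93 and -3.52 ± 0.77. Ccdc8, a partner of a cullin ligase, fell from 22.3, 22.7 and 19.3 CPM to 0.952, 0.656 and 2.35 CPM (-4.02 ± 0.40, or -4.73 without graft replicate 3).

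Between the cold-ischemia grafts and the shock grafts, edgeR called 0 genes (0.0%) with the groups of the titles, with 1152 genes at an unadjusted p under 0.05. DESeq2 called 6. With the groups of the deposited tables edgeR called 124.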

How the data were processed

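RNA of whole left lungs was sequenced, and 9 libraries in 3 deposited tables were joined by gene identifier (23944 genes; 98.9% of identifiers were in the gene name table). The values tested are whole-number read counts per gene, which the authors made by mapping to mm10. STAR, HTSeq, DESeq2, edgeR and STAR-Fusion are named, with no version, per the submitters' processing notes; which of them made each column, and whether strand was used, is not stated in the labels or headers, so a gene and its antisense partner may share reads. The tables also hold, per the file headers, normalised signal (counts the authors divided by 1 size factor per library), FPKM, log2 fold changes and p-values of the authors' own comparisons; these deposited columns were not used for any result. The tables repeat each library's counts, and 0 repeated counts differed.

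Genes passing edgeR's filterByExpr were tested with edgeR 4.0.16 (R 4.3.3): TMM scaling, a quasi-likelihood fit of 3 group means over all 9 libraries, two-sided tests and Benjamini-Hochberg adjustment over all 15834 genes, called at 0.05. CPM values use the TMM library sizes. Groups follow the titles. The ± beside a log2 fold change is its SE from the fit. The smallest library had 18913487 counts and the largest 34986276; 1 read was worth about 0.05 CPM or less in each compared library. Floors cover counting error only. On simulated counts for this comparison (15767 genes), 85.4% and 88% of genes changed 4-fold downwards and upwards were called, and 40% and 36.7% of those changed 2-fold. In that simulation 15570 genes were left unchanged, while 30.6% of genes were called in the data. The adjustment depends on that share, so the rates may differ in the data. Replicate libraries differed by more than sampling noise in every pair.

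Members and gene lists were chosen with earlier results of these data known. Named genes exclude cytokines, predicted genes and pseudogenes and are, among called genes without overlap between groups, the 8 largest rises and falls by fold (mean of at least 10 CPM) and by CPM, the 5 smallest adjusted p, and up to 4 members per list plus members that moved against their list; other members named beside a count, Procr, Srf and H2-Ea-ps among them, were chosen after their values were seen. Genes can stand in several lists. Promoter windows are from RefSeq (GRCm38.p6) and matched 12156 of the genes tested (76.8%), so a comparison of motif shares between gene sets is void. The alternatives were other scaling (DESeq2 size factors, upper quartile), DESeq2 1.42.0, no filter, only the 6 libraries, a replicate block, leaving out each library, the grouping of the tables and leaving out both disputed libraries. Some results of the fit are not reported here.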

Additional observations from a re-analysis of the deposited data

How the results depend on the processing

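The 6 libraries compared hold 3 per group. Genes that changed 2-fold were often missed on simulated counts, where far fewer genes were changed than were called in the data. Across the 17 alternatives, 0 of the 4846 calls appeared in the opposite direction. Of 354 genes chosen by the naming rule 270 kept their call in all 17, and of 71 list counts of at least 3 members 44 stayed within 1.5 times. The genes called in all numbered 3371 to 5662 when 1 library was left out, the genes higher 2083 to 3094 and the genes lower 1288 to 2568. Upper-quartile scaling gave 3371 lower genes instead of 2078, and moved the median of all genes by -0.18, so 39.3% of called genes were higher instead of 57.1%. DESeq2 called 5362 genes and the fit of only the 6 libraries 5781. The cause of these differences was not tested, beyond the fewer samples where a library was left out.

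Replicate numbers shared by the groups did not pair the libraries: same-numbered grafts and naive lungs deviated from their group means with correlations of -0.0957, -0.0649 and -0.0725. A fit with the number as a replicate block called 4296 genes, 2492 higher and 1804 lower, against 4846. Of the genes chosen by the naming rule 22 lost their call under the block, Hpgd among them.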

Other observations

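A pair of genes with 0 reads in all naive libraries and called higher in grafts was picked after their values were seen. Fgf23, a hormone of bone that lowers phosphate, had 5.76, 4.96 and 2.77 CPM in grafts, at least 145-fold above a floor of 3 reads over the naive group (adjusted p = 3.7e-05 by edgeR). Wnt1 had 0.726, 0.615 and 0.739 CPM, at least 22.3-fold higher (adjusted p = 0.00028). The grafts were nearly equal at Wnt1 and scarce in it.

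Some changes were almost the same in every graft and others were not. Tfe3, a factor of lysosome genes, had 43.1, 42.0 and 42.7 CPM in naive lungs and 121, 122 and 125 CPM in grafts (1.53 ± 0.13), and Il17rd, which holds back growth factor signals, 75.5, 73.0 and 77.8 CPM and 22.8, 22.5 and 23.3 CPM (-1.72 ± 0.12). By contrast the interferon-induced Rsad2 had 3.29, 3.98 and 3.97 CPM and 280.1, 118 and 45.6 CPM (5.30 ± 0.59), and Ifit1 16.9, 22.4 and 26.8 CPM and 867, 407 and 155 CPM (4.43 ± 0.53). In both of these replicate 1 was the highest graft and replicate 3 the lowest. Tmem252, a membrane protein, had 19.3, 15.6 and 33.1 CPM and 442, 89.3 and 317 CPM (3.64 ± 0.84), with replicate 2 the lowest. These genes were also chosen for their spread, which is thus no test.

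Classes of genes differed in their counts. Of 311 pseudogenes tested 62 (19.9%) were higher, near the 17.5% of all genes tested, and 13 (4.18%) lower, against 13.1%. Pseudogenes took 0.105% ± 0.00776 (SD, n = 3) of the counts of naive lungs and 0.183% ± 0.0193 of those of grafts. Pseudogenes can share reads with their parent genes, and how such reads were counted is not stated in the labels or headers. Of 346 lincRNA genes 36 (10.4%) were higher and 43 (12.4%) lower. By genomic span, 6.73% of the longest class of 3167 genes were lower, against 14.5% of the shortest. By level, 34.0% of the most expressed of 5 equal classes were higher and 6.00% lower, while in the second lowest 9.79% were higher and 19.8% lower. Of 17 mitochondrial aminoacyl-tRNA synthetases 4 were lower and 0 higher, or 8 lower with upper-quartile scaling. Of 47 mitochondrial ribosomal proteins of the large subunit 9 were lower and 1 higher.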
